A study of Mus musculus with 10 samples.

Results

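The data concern 36 skeletal muscle fiber and satellite cell transcripts measured in macrophages that had been sorted from mouse hindlimb muscle. The members were chosen by name, as genes of the contractile apparatus, its calcium and energy supply, the satellite cell and the dystrophin complex. All 36 of 36 had a row among the 17001 genes of the table, and all 36 reached 10 normalized counts in 3 or more libraries (0 of the 17001 genes failed it). Bulk RNA-seq libraries were made from 3 populations of live F4/80+CD11b+Siglec-F- cells taken from mice at 4 weeks of age. Gal-3+ macrophages (4 libraries, gated as gal-3 high and Folr2 low) and monocyte-derived macrophages (MDMs, 3 libraries, CD52+ with low gal-3 and no Folr2) came from dystrophic C57BL/10ScSn-Dmdmdx/J mice (B10.mdx), which lack full-length dystrophin in all tissues because of a stop mutation in Dmd. Skeletal muscle resident macrophages (SkMRMs, 3 libraries, Folr2+) came from wild-type C57BL/10 (WT) mice. Genotype and population therefore cannot be told apart in the comparisons with SkMRMs, whereas gal-3+ macrophages and MDMs share the mdx genotype. The labels do not say whether a gal-3+ and an MDM library with the same mdx number came from 1 mouse, nor how many mice a library holds, so the p-values measure the spread between these libraries.

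A muscle fiber is built of sarcomeres, in which thick filaments of myosin slide along thin filaments of actin, tropomyosin and troponin, anchored at the Z disc and held in register by titin. Fast fibers of adult limb muscle use 1 set of myosin heavy chains, and newly formed or regenerating fibers transiently use embryonic and neonatal ones. Satellite cells, marked by the factor Pax7, are the muscle stem cells that supply nuclei for regeneration. Most of these genes define muscle cells and not macrophages, and macrophages in mdx muscle lie among necrotic and regenerating fibers and clear the debris. The values are bulk ones, in which fewer cells of a type and less RNA per cell cannot be told apart.

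Libraries held between 22395027 and 75907638 reads in genes, the deepest being SkMRM WT3. Gate genes followed the sort for Folr2 (2278 to 2759 normalized counts in gal-3+ macrophages, 80.6 to 152 in MDMs and 14326 to 14719 in SkMRMs), and Lgals3, which encodes gal-3, was as high in MDMs (40211 to 51278) as in gal-3+ macrophages (40684 to 45826), against 3907 to 4559 in SkMRMs. The 12 macrophage identity genes summed to 404222 to 490860.0 normalized counts in gal-3+ macrophages, 398067 to 455162 in MDMs and 391037 to 407254 in SkMRMs. All levels below are normalized counts, which are reads divided by the size factor of the library. A gene was called at a difference of at least 2-fold (a log2 difference of at least 1) with an adjusted p under 0.01 over all genes, in a limma fit of log2(normalized count + 1) over all 10 libraries. Differences are given on that log2 scale with their standard error (SE).

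Muscle transcripts were a small part of every library and were ordered by population. They took 0.0699% [0.0691% to 0.0708%], 0.0676% [0.0665% to 0.0687%], 0.0673% [0.0664% to 0.0682%] and 0.0807% [0.0797% to 0.0816%] of the gene reads in the gal-3+ libraries. The share was 0.0268% [0.0261% to 0.0275%], 0.0255% [0.0249% to 0.0261%] and 0.0255% [0.0249% to 0.0260%] in the MDM libraries, and 0.104% [0.103% to 0.105%], 0.108% [0.107% to 0.109%] and 0.158% [0.157% to 0.159%] in the SkMRM libraries (95% Wilson intervals in brackets, which cover counting error only). The groups did not overlap. Group means were 0.0714% ± 0.00630 in gal-3+ macrophages, 0.0259% ± 0.000753 in MDMs and 0.123% ± 0.0301 in SkMRMs (SD, n = 4, 3 and 3), a description with no test. SkMRM WT3 stood above the other 2 SkMRM libraries. The 4 genes that other cells also express, Tpm1, Tpm2, Des and Dmd, made up part of this signal, and without them the shares were 0.0491%, 0.0172% and 0.0916% in gal-3+ macrophages, MDMs and SkMRMs.

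**Figure D1:**
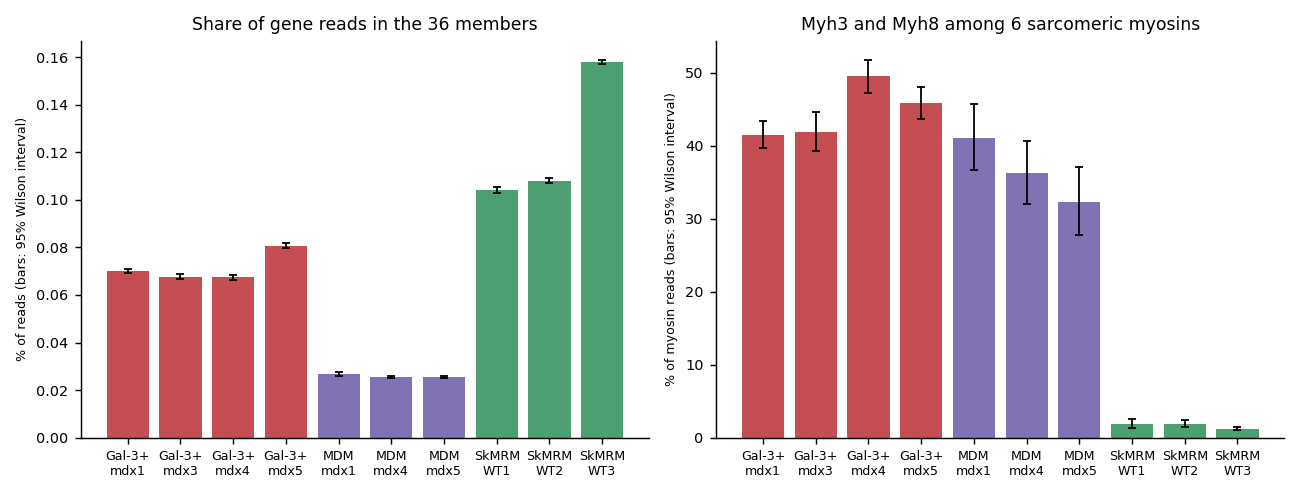
Left, percent of all gene reads in the 36 muscle members for each library. Right, percent of Myh3 and Myh8 among the reads of 6 sarcomeric myosin heavy chains. Bars are libraries and whiskers are 95% Wilson intervals. Muscle reads were most frequent in SkMRMs, and developmental myosins made up 32.3% to 49.6% of myosin reads in the 7 mdx libraries, against 1.22% to 1.89% in the 3 SkMRM libraries.

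Of the 36 members, 3 were called higher and 9 lower in gal-3+ macrophages relative to SkMRMs, where 5.34% of all genes tested were called higher and 11.9% lower. Their median log2 difference was -0.75, beside -0.11 over all genes. Without the SkMRM WT3 library only 2 were called higher and 4 lower, with a median of -0.53; Myh3 and Myh8 were the higher members, and Myh4, Ckm, Pygm and Xirp2 the lower ones. Between MDMs and SkMRMs, 2 members were called higher in MDMs and 27 lower, where 8.81% of all genes were called higher and 18.0% lower, with a median log2 difference of -2.41 beside -0.17 over all genes. Within mdx muscle, 25 members were called higher in gal-3+ macrophages than in MDMs, where 8.19% of all genes were called higher and 3.32% lower, with a median of 1.48 beside -0.03. No member was called lower in that comparison, by limma, by edgeR or by DESeq2 (0 each), and 0 members had a negative difference at an unadjusted p under 0.05 in limma. The 3 comparisons share libraries and are not independent. For 28 members the mean of gal-3+ macrophages lay above that of MDMs and below that of SkMRMs, an order that was not counted over all genes. The 28 include differences near 0, such as Ttn in gal-3+ macrophages against SkMRMs (-0.04, and 0.27 without SkMRM WT3). Myh3, Myh8, Cacng1 and Myf5 had their highest mean in gal-3+ macrophages and their lowest in SkMRMs, Des, Chrna1 and Myod1 were highest in gal-3+ macrophages and lowest in MDMs, and Ryr1 was lowest in gal-3+ macrophages.

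**Figure D2:**
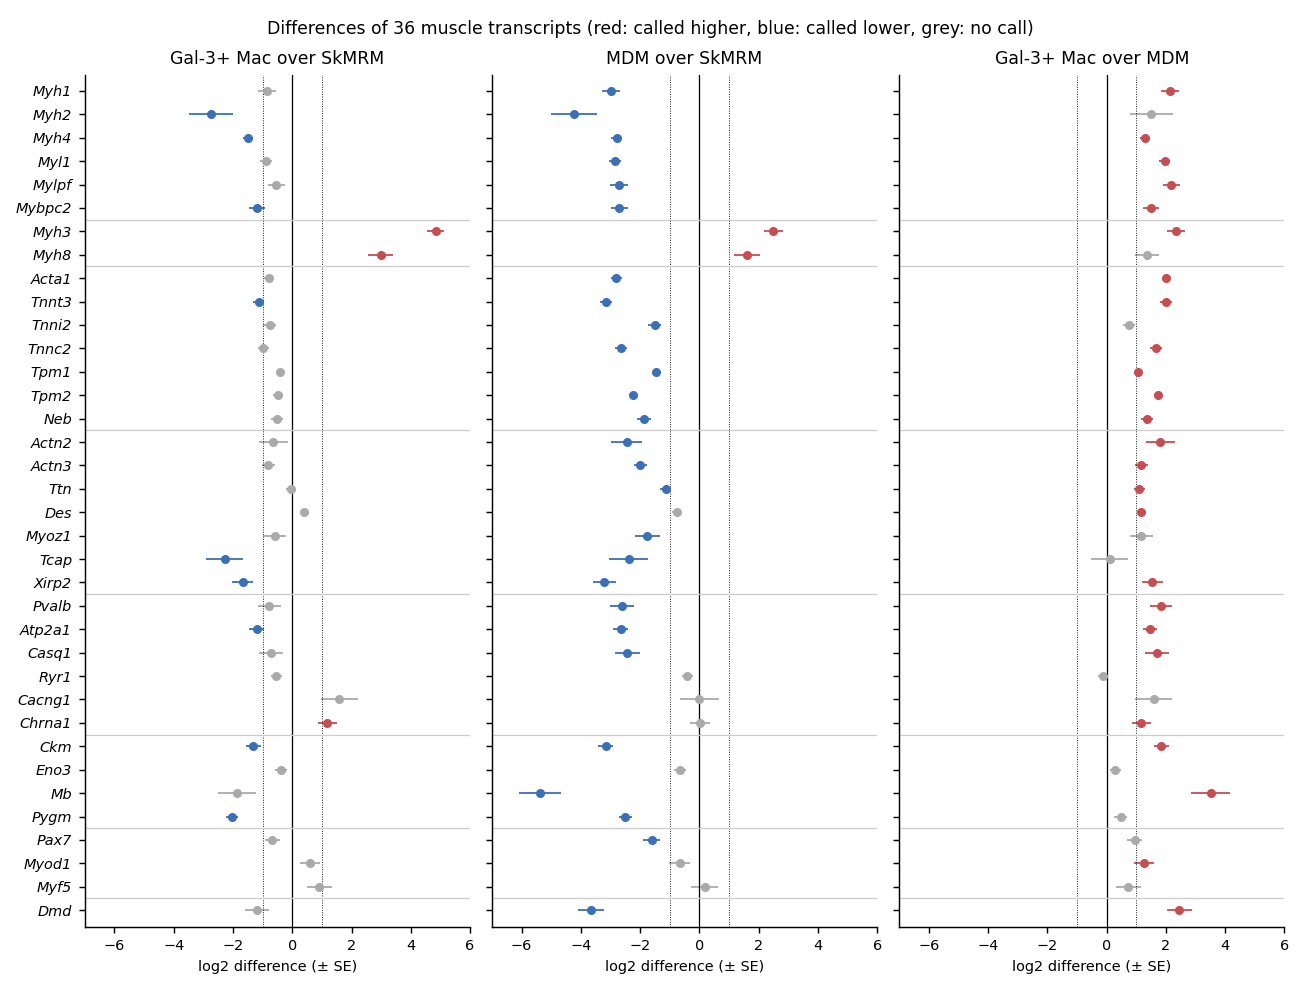
Log2 differences (points) with SE (lines) for the 36 members, in order of their role, in the comparisons of gal-3+ macrophages with SkMRMs, MDMs with SkMRMs and gal-3+ macrophages with MDMs. Dotted lines mark a 2-fold difference. Most members were lower in MDMs relative to SkMRMs (27 called), and Myh3 and Myh8 lay on the other side.

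Myosins of adult fast fibers had lower means in both mdx populations than in SkMRMs, and the lowest in MDMs. All 6 genes of this role were called lower in MDMs relative to SkMRMs (100%, beside 18.0% of all genes). Gal-3+ macrophages had 3 called lower than SkMRMs (50%, beside 11.9%) and 5 called higher than MDMs (83.3%, beside 8.19%). Myh4, the heavy chain of the fastest (type 2B) fibers, had 728, 576, 637 and 584 normalized counts in gal-3+ macrophages, 266, 274 and 227 in MDMs and 1479, 1516 and 2496 in SkMRMs. The 3 groups did not overlap, and the log2 differences were -1.50 ± 0.17, adjusted p = 1.2e-06 for gal-3+ macrophages against SkMRMs, -2.80 ± 0.18, adjusted p = 6.7e-10 for MDMs against SkMRMs and 1.30 ± 0.17, adjusted p = 1.1e-05 for gal-3+ macrophages against MDMs. Myh1, the heavy chain of type 2X fibers, had 429, 393, 326 and 413 in gal-3+ macrophages, 136, 105 and 47.0 in MDMs and 652, 519 and 1011 in SkMRMs. It was lower in MDMs relative to SkMRMs (-2.98 ± 0.31, adjusted p = 4.0e-07), and the difference between gal-3+ macrophages and SkMRMs, -0.85 ± 0.29, adjusted p = 0.025, did not pass. Myh2, the heavy chain of type 2A fibers, was scarce, with 55.2, 48.0, 6.16 and 30.2 in gal-3+ macrophages, 12.6, 2.55 and 18.8 in MDMs and 181, 113 and 316 in SkMRMs. It was called lower in gal-3+ macrophages relative to SkMRMs (-2.74 ± 0.73, adjusted p = 0.0051), but not without gal-3+ mdx4 (-2.08, adjusted p = 0.014), gal-3+ mdx5 (-2.79, adjusted p = 0.011), SkMRM WT1 (-2.76, adjusted p = 0.019) or SkMRM WT3 (-2.36, adjusted p = 0.031). MDMs were also lower than SkMRMs in Myh2 (-4.25 ± 0.78, adjusted p = 1.8e-04).

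Myosin light chains and the fast myosin-binding protein followed the heavy chains. Myl1, an essential light chain of fast fibers, had 1077, 895, 790.1 and 1358 normalized counts in gal-3+ macrophages, 334, 211 and 247 in MDMs and 1621, 1618 and 2485 in SkMRMs, and was lower in MDMs relative to SkMRMs (-2.85 ± 0.21, adjusted p = 4.4e-09). Mylpf, the fast regulatory light chain, had 314, 288, 320.1 and 456 in gal-3+ macrophages, 99.6, 40.8 and 98.6 in MDMs and 441, 446 and 605 in SkMRMs. Gal-3+ macrophages overlapped SkMRMs in Mylpf, and exceeded MDMs by 2.18 ± 0.28, adjusted p = 1.2e-05. Mybpc2, the fast myosin-binding protein C, had 185, 133, 192 and 307 in gal-3+ macrophages, 74.3, 62.5 and 69.3 in MDMs and 383, 410.0 and 581 in SkMRMs. It was called lower in gal-3+ macrophages relative to SkMRMs (-1.20 ± 0.27, adjusted p = 0.0014), but without SkMRM WT3 the difference was -1.02, adjusted p = 0.013 and was not called.

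Developmental myosins were higher in both mdx populations than in SkMRMs, whereas the adult ones called in these comparisons were lower; within mdx muscle both sets had higher means in gal-3+ macrophages than in MDMs. Myh3, the embryonic myosin heavy chain, had 747, 505, 774 and 709.8 normalized counts in gal-3+ macrophages, 159.7, 184 and 77.5 in MDMs and 26.8, 22.5 and 19.1 in SkMRMs. The 3 groups did not overlap, and the mean in gal-3+ macrophages was 30.0-fold that in SkMRMs and 4.88-fold that in MDMs. All 3 differences passed, with 4.84 ± 0.30, adjusted p = 6.8e-10 for gal-3+ macrophages against SkMRMs, 2.49 ± 0.32, adjusted p = 3.9e-06 for MDMs against SkMRMs and 2.35 ± 0.30, adjusted p = 1.0e-05 for gal-3+ macrophages against MDMs. Myh8, the neonatal (perinatal) heavy chain, had 129, 228, 182 and 182 in gal-3+ macrophages, 129.7, 37.0 and 64.6 in MDMs and 18.7, 18.6 and 28.5 in SkMRMs. Both mdx populations were called higher than SkMRMs, gal-3+ macrophages by 2.98 ± 0.42, adjusted p = 1.6e-05 and MDMs by 1.61 ± 0.44, adjusted p = 0.0052. The MDM call was lost without MDM mdx1 (1.15, adjusted p = 0.039), MDM mdx5 (1.65, adjusted p = 0.013), SkMRM WT1 (1.51, adjusted p = 0.018) or SkMRM WT2 (1.51, adjusted p = 0.018). Gal-3+ macrophages and MDMs overlapped in Myh8 through MDM mdx1, and their difference did not pass (1.37 ± 0.42, adjusted p = 0.015).

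**Figure D3:**
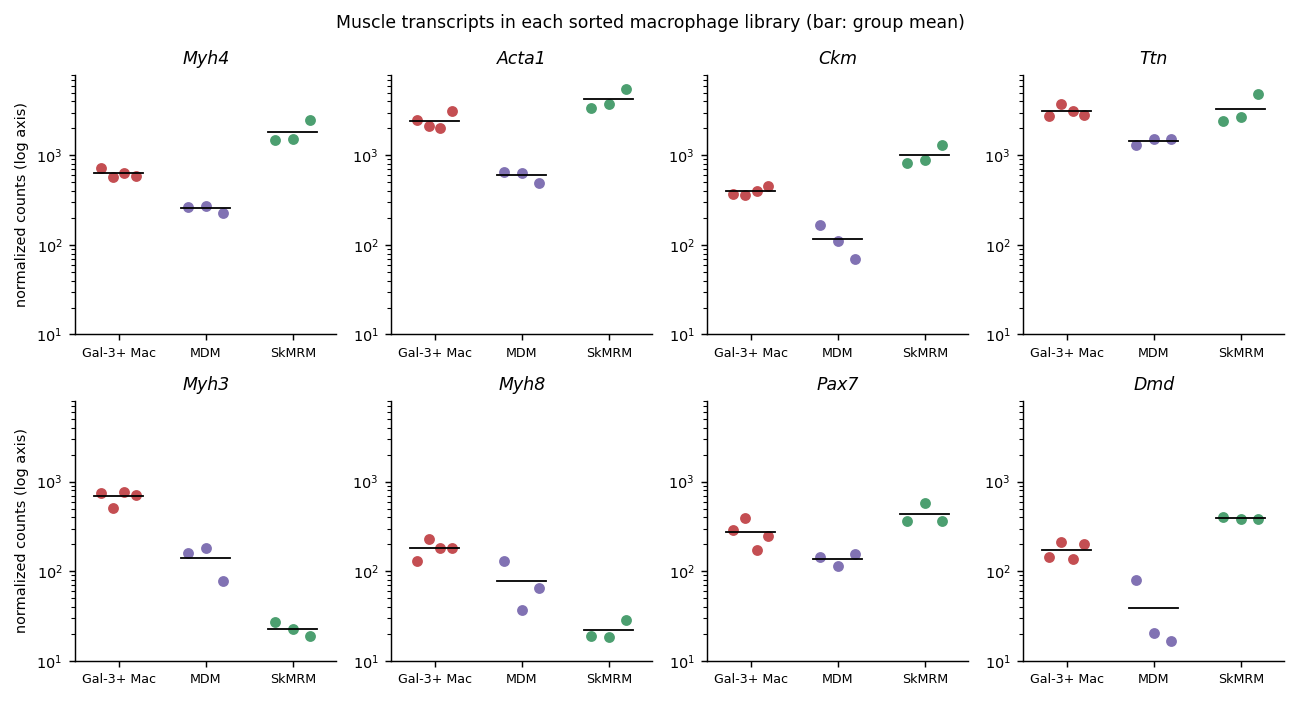
Normalized counts (log axis) of 8 members in each library, by population. Points are libraries and bars are group means. Myh4, Acta1 and Ckm were lowest in MDMs and highest in SkMRMs, Myh3 and Myh8 were lowest in SkMRMs, and Ttn overlapped between gal-3+ macrophages and SkMRMs.

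The 5 myosin heavy chain members lie side by side on chromosome 11 (mm10, GENCODE), on the + strand, in the order Myh3 (chr11:67078300-67102291), Myh2 (chr11:67171027-67197517), Myh1 (chr11:67200052-67224575), Myh4 (chr11:67238029-67260446) and Myh8 (chr11:67277124-67308634). Their coding sequences are similar, so part of their reads may be shared. Of the 100-base windows of each gene's transcripts, 9.24% in Myh1, 7.80% in Myh2, 3.85% in Myh4, 3.38% in Myh8 and 1.13% in Myh3 also occurred in a transcript of another gene. The values of Myh1 and Myh2 are the most uncertain of these.

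The sequences before the start of transcription are shown for 2 developmental and 2 adult genes, since Myh3 and Myh8 were called higher, and Myh4 and Acta1 lower, in MDMs relative to SkMRMs. Each line gives the 150 bases before the start in RefSeq (GRCm38.p6), 5′ to 3′ on the strand of the gene, with matches to 4 motifs in capitals. The windows are chr11:67078150-67078299 for Myh3, + strand, chr11:67276974-67277123 for Myh8, + strand, chr11:67237662-67237811 for Myh4, + strand, and chr8:123894776-123894925 for Acta1, - strand. 
Myh3: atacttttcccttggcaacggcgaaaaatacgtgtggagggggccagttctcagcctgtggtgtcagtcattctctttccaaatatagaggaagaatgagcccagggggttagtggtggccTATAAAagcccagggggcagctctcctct
Myh8: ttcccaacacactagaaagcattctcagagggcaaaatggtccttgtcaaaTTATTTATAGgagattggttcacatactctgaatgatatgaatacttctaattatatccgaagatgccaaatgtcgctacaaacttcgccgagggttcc
Myh4: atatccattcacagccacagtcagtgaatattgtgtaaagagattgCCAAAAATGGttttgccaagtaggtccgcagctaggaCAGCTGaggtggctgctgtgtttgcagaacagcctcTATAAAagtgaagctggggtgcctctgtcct
Acta1: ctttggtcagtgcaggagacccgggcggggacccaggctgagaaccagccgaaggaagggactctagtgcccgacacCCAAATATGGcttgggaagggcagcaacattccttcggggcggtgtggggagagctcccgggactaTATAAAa

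Matches were searched on both strands of the 250 bases before the start. A TATA box (TATAAA) was found before Myh3 29, Myh4 31 and Acta1 7 bases upstream of the RefSeq start, counted to the first base of the match. For Acta1 and Myh4 the GENCODE start lies further downstream (chr8:123894751 and chr11:67238029), so their distances depend on the annotation. Myh4 had further matches 213 and 179 bases upstream. The motif was found in 7 of 32 member promoters (21.9%, against 12.4% of all 32851 promoters of this length). The MyoD-type E-box (CAGCTG) stood before Myh4 and, outside the bases shown, before Acta1, and 12 of the 28 members with a promoter in the table held it in at least 1 promoter. By promoter, 13 of 32 member promoters (40.6%) and 13.0% of all promoters had this E-box. A MEF2 site was found in 7 of 32 member promoters (21.9%, against 2.92% of all), among them that of Myh8, where it overlapped a TATAAA match on the other strand. The CArG box was found in 3 of 32 member promoters (9.38%, against 1.47% of all), those of Acta1, Myh4 and Dmd. The 150 bases before Myh3 held no E-box, MEF2 or CArG match, and a match or its absence says nothing of binding in these samples.

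All 7 thin filament genes were called lower in MDMs relative to SkMRMs (100%, beside 18.0% of all genes). Gal-3+ macrophages had 6 called higher than MDMs (85.7%, beside 8.19%). Only 1, Tnnt3, was called lower in gal-3+ macrophages relative to SkMRMs (14.3%, near the 11.9% of all genes). Acta1, skeletal alpha-actin, had 2465, 2117, 2024 and 3144 normalized counts in gal-3+ macrophages, 659, 639 and 492 in MDMs and 3393, 3791 and 5454 in SkMRMs. It was called lower in MDMs relative to SkMRMs (-2.80 ± 0.18, adjusted p = 5.6e-10), and its difference between gal-3+ macrophages and SkMRMs (-0.78 ± 0.16, adjusted p = 8.6e-04) stayed under 2-fold. Per kilobase of exon, Acta1 was the most abundant member in every population, with 1587, 389 and 2743 normalized counts per kilobase in gal-3+ macrophages, MDMs and SkMRMs. Tnnt3, fast troponin T, had 843, 633, 725 and 1187 in gal-3+ macrophages, 228, 191 and 195 in MDMs and 1460.4, 1661 and 2449 in SkMRMs. Its call in gal-3+ macrophages over SkMRMs (-1.14 ± 0.20, adjusted p = 1.4e-04) was lost without SkMRM WT3, with a difference of -0.92, adjusted p = 9.9e-04. MDMs were lower than SkMRMs in Tnnt3 (-3.14 ± 0.21, adjusted p = 1.2e-09). Together the 7 genes made up 46.2%, 43.2% and 48.4% of the summed level of all members in gal-3+ macrophages, MDMs and SkMRMs. Without the broadly expressed Tpm1, Tpm2, Des and Dmd they made up 32.4%, 25.9% and 36.1% of the rest, and in MDMs were then below the Z disc and titin genes (29.0%).

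The other 2 troponins, Tnnc2 and Tnni2, showed the same order of means. Tnnc2, the fast calcium-binding troponin C, had 677, 724, 504 and 858 normalized counts in gal-3+ macrophages, 189.7, 212 and 241 in MDMs and 1046, 1265 and 1789 in SkMRMs, with -2.64 ± 0.20, adjusted p = 7.2e-09 for MDMs against SkMRMs. Tnni2, fast troponin I, had 459, 407, 550.0 and 506 in gal-3+ macrophages, 288, 209 and 379 in MDMs and 696, 665 and 1149 in SkMRMs. In Tnni2 the gal-3+ macrophages exceeded MDMs by less than 2-fold (0.75 ± 0.21, adjusted p = 0.0093). Neb encodes nebulin, the ruler of the thin filament, and had 617, 504, 642 and 713 in gal-3+ macrophages, 266, 311 and 164 in MDMs and 791, 721 and 1180.3 in SkMRMs. MDMs were lower than SkMRMs in Neb (-1.87 ± 0.22, adjusted p = 1.9e-06) and gal-3+ macrophages did not differ at the threshold (-0.51 ± 0.21, adjusted p = 0.053).

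Tropomyosins cover the actin filament and are also made by smooth muscle and other cells. Among the thin filament genes, Tpm1 and Tpm2 differed least between gal-3+ macrophages and SkMRMs (Tpm2 by -0.50 ± 0.14, adjusted p = 0.0089). Tpm1 had 4073, 3676, 3919 and 4566 normalized counts in gal-3+ macrophages, 1872, 1989 and 1989 in MDMs and 5725, 4908 and 5595 in SkMRMs. The groups did not overlap, but the difference of gal-3+ macrophages against SkMRMs (-0.42 ± 0.08, adjusted p = 6.6e-04) stayed under 2-fold. MDMs were lower than SkMRMs (-1.47 ± 0.09, adjusted p = 4.4e-10), and the call of gal-3+ macrophages over MDMs (1.05 ± 0.08, adjusted p = 7.8e-08) was lost without gal-3+ mdx5, at 0.99, adjusted p = 5.4e-07. Tpm2 had 1330.2, 1144, 1379 and 1624 in gal-3+ macrophages, 498, 351 and 389 in MDMs and 1733, 1763 and 2307 in SkMRMs, with -2.23 ± 0.15, adjusted p = 1.9e-09 for MDMs against SkMRMs.

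Genes of the Z disc, titin and the intermediate filament were split. Of 7, 6 were called lower in MDMs relative to SkMRMs (85.7%, beside 18.0% of all genes). Gal-3+ macrophages had 2 called lower than SkMRMs (28.6%, beside 11.9%) and 5 called higher than MDMs (71.4%, beside 8.19%). Ttn, the giant protein titin, had 2762, 3757, 3119 and 2795 normalized counts in gal-3+ macrophages, 1298, 1513 and 1509 in MDMs and 2420.3, 2685 and 4911 in SkMRMs. Gal-3+ macrophages and SkMRMs overlapped (-0.04 ± 0.18, adjusted p = 0.87). MDMs were lower than SkMRMs in Ttn (-1.14 ± 0.19, adjusted p = 7.0e-05), a call lost without SkMRM WT3 at -0.83, adjusted p = 2.0e-05. Des, the intermediate filament protein desmin, present in satellite cells and smooth muscle too, had 1205, 1349.7, 1454 and 1964 in gal-3+ macrophages, 615, 686 and 669 in MDMs and 1071, 1218 and 1073 in SkMRMs. Desmin was higher in gal-3+ macrophages than in MDMs (1.16 ± 0.14, adjusted p = 4.4e-06), and both other differences stayed under 2-fold.

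Among Z disc proteins, the alpha-actinins that anchor the thin filament were lowest in MDMs. Actn3, the fast-fiber alpha-actinin, had 398, 272, 336 and 429 normalized counts in gal-3+ macrophages, 174, 159 and 136 in MDMs and 538, 494 and 904 in SkMRMs, and was lower in MDMs relative to SkMRMs (-1.99 ± 0.23, adjusted p = 1.4e-06). Actn2 had 67.6, 88.0, 64.6 and 148 in gal-3+ macrophages, 55.3, 19.1 and 12.9 in MDMs and 129, 90.1 and 216 in SkMRMs. Its call in gal-3+ macrophages over MDMs (1.81 ± 0.49, adjusted p = 0.0071) was lost without any 1 of 6 libraries (gal-3+ mdx1, mdx3 or mdx5, MDM mdx4 or mdx5, or SkMRM WT1), with log2 differences between 1.39 and 1.93, and in edgeR (1.73, adjusted p = 0.013). Xirp2, an actin-binding protein with Xin repeats, had 135, 189, 133 and 177 in gal-3+ macrophages, 80.6, 26.8 and 69.3 in MDMs and 379, 406 and 806 in SkMRMs. It was lower than in SkMRMs in both gal-3+ macrophages (-1.66 ± 0.35, adjusted p = 9.6e-04) and MDMs (-3.20 ± 0.38, adjusted p = 1.6e-06). The call of Xirp2 in gal-3+ macrophages over MDMs (1.54 ± 0.35, adjusted p = 0.0024) was lost without MDM mdx4, at 1.06, adjusted p = 0.014.

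The remaining 2 Z disc genes were scarce. Tcap, telethonin, had 17.9, 9.34, 11.3 and 38.0 normalized counts in gal-3+ macrophages, 20.6, 20.4 and 8.22 in MDMs and 42.0, 85.4 and 164 in SkMRMs. Both mdx populations were called lower than SkMRMs, gal-3+ macrophages with -2.28 ± 0.63, adjusted p = 0.0065 and MDMs with -2.39 ± 0.67, adjusted p = 0.0058. These calls rested on single libraries. The first was lost without gal-3+ mdx1, mdx3 or mdx4 or SkMRM WT2 or WT3, with log2 differences of -2.32 to -1.80, and the second without MDM mdx5 or SkMRM WT2 or WT3, with -2.38 to -1.91. Myoz1, a calsarcin that binds calcineurin at the Z disc, had 49.8, 77.4, 69.8 and 146 in gal-3+ macrophages, 41.1, 24.2 and 41.1 in MDMs and 109.6, 129.7 and 121 in SkMRMs, and was lower in MDMs relative to SkMRMs (-1.77 ± 0.42, adjusted p = 0.0018).

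Of the 6 genes of calcium handling and excitation, 3 (Atp2a1, Pvalb and Casq1) were called lower in MDMs relative to SkMRMs (50%, beside 18.0%). In gal-3+ macrophages 1 was called lower (Atp2a1) and 1 higher (Chrna1) relative to SkMRMs. These were 16.7% each, beside 11.9% and 5.34% of all genes. Gal-3+ macrophages had 4 called higher than MDMs (66.7%, beside 8.19% of all genes). Atp2a1, the fast-fiber calcium pump SERCA1, had 498, 433, 411 and 512 normalized counts in gal-3+ macrophages, 259, 114 and 159.7 in MDMs and 912, 847 and 1557 in SkMRMs. It was called lower in gal-3+ macrophages (-1.20 ± 0.24, adjusted p = 6.2e-04) and in MDMs (-2.66 ± 0.26, adjusted p = 1.6e-07) than in SkMRMs, and without SkMRM WT3 the first difference was -0.93, adjusted p = 0.0049 and was not called. Pvalb, parvalbumin, the calcium buffer of fast fibers, had 252, 229, 259.6 and 265 in gal-3+ macrophages, 147, 31.9 and 71.6 in MDMs and 318, 350.2 and 720.4 in SkMRMs, with -2.61 ± 0.41, adjusted p = 3.7e-05 for MDMs against SkMRMs. Its difference between gal-3+ macrophages and SkMRMs (-0.78 ± 0.38, adjusted p = 0.1) did not pass. Casq1, the calcium store protein calsequestrin, had 96.4, 149, 122 and 110.2 in gal-3+ macrophages, 77.5, 25.5 and 22.3 in MDMs and 149, 175 and 289 in SkMRMs. Gal-3+ macrophages overlapped SkMRMs in Casq1, and their difference (-0.73 ± 0.40, adjusted p = 0.15) did not pass. MDMs were lower than SkMRMs in Casq1 (-2.43 ± 0.43, adjusted p = 1.3e-04), and its call in gal-3+ macrophages over MDMs (1.71 ± 0.40, adjusted p = 0.0029) was lost without MDM mdx4 (1.48, adjusted p = 0.017) or MDM mdx5 (1.38, adjusted p = 0.019).

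Chrna1, the alpha subunit of the muscle acetylcholine receptor, had 301, 207, 395 and 254 normalized counts in gal-3+ macrophages, 87.0, 177 and 126 in MDMs and 75.8, 193 and 126 in SkMRMs. In muscle this gene is known to be active at the neuromuscular junction and all along new or denervated fibers. All 4 gal-3+ libraries lay above all MDM and SkMRM libraries, and the gene was called higher in gal-3+ macrophages relative to SkMRMs (1.19 ± 0.33, adjusted p = 0.0063) and than in MDMs (1.17 ± 0.33, adjusted p = 0.0089). These calls were close to the threshold. The first ended without gal-3+ mdx1, mdx4 or mdx5 or SkMRM WT1 or WT3 (log2 differences of 0.85 to 1.24) and with upper quartile scaling (1.07, adjusted p = 0.012). The second ended without gal-3+ mdx1, mdx4 or mdx5 or MDM mdx1 or mdx5 (log2 differences of 0.91 to 1.22). Cacng1, the gamma subunit of the muscle calcium channel, ranged from 31.8 to 46.8 in gal-3+ macrophages, 4.74 to 21.1 in MDMs and 7.0 to 20.2 in SkMRMs. Its difference between gal-3+ macrophages and SkMRMs (1.59 ± 0.62, adjusted p = 0.043) did not pass. Ryr1, the calcium release channel of the sarcoplasmic reticulum, differed by less than 2-fold between the means, at 292 to 416 in gal-3+ macrophages, 333 to 479.7 in MDMs and 459.6 to 640.3 in SkMRMs, and it had no call in any comparison.

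Of the 4 genes of energy metabolism and oxygen supply, 2 (Ckm and Pygm) were called lower in gal-3+ macrophages and 3 (these and Mb) in MDMs, each relative to SkMRMs. Between the mdx populations, 2 (Ckm and Mb) were called higher in gal-3+ macrophages than in MDMs. Ckm, muscle creatine kinase, had 370.1, 365, 403 and 454 normalized counts in gal-3+ macrophages, 166, 111 and 70.4 in MDMs and 825, 881 and 1313 in SkMRMs. It was lower than in SkMRMs in gal-3+ macrophages (-1.31 ± 0.24, adjusted p = 2.5e-04) and in MDMs (-3.16 ± 0.26, adjusted p = 1.5e-08), and the groups did not overlap. Pygm, the muscle glycogen phosphorylase, had 194, 276, 238 and 350.0 in gal-3+ macrophages, 193, 147 and 227 in MDMs and 932, 975 and 1291 in SkMRMs. Here the 2 mdx populations overlapped (0.47 ± 0.21, adjusted p = 0.083), and both were called lower than SkMRMs, with -2.03 ± 0.21, adjusted p = 5.1e-07 for gal-3+ macrophages and -2.50 ± 0.22, adjusted p = 5.5e-08 for MDMs. Mb, myoglobin, the oxygen store of fibers, had 36.5, 25.3, 40.0 and 47.8 in gal-3+ macrophages, 6.32, 3.83 and 0 in MDMs and 103, 109 and 223 in SkMRMs. The MDM values stood for 4, 3 and 0 reads, where a count of 0 allows up to 3 reads, so the fitted log2 difference of -5.38 ± 0.70, adjusted p = 4.4e-06 for MDMs against SkMRMs depends on the pseudocount and gives no fold. The gal-3+ libraries lay below all SkMRM libraries in Mb, without passing in the main limma fit (-1.86 ± 0.65, adjusted p = 0.025). This difference passed in DESeq2 (-1.95, adjusted p = 8.6e-05), in edgeR (-1.89, adjusted p = 0.0038) and in limma with these 2 populations alone (adjusted p = 0.0018). It also passed in limma with a pseudocount of 5 (-1.76, adjusted p = 0.0026) or without MDM mdx5 (adjusted p = 0.0042). Eno3, the muscle enolase, ranged from 305 to 474 in gal-3+ macrophages, 251 to 336 in MDMs and 407 to 586 in SkMRMs, and had no call.

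Satellite cell factors had no call between gal-3+ macrophages and SkMRMs. Of the 3 genes, 0 passed in limma, in edgeR and in DESeq2, and 2, Pax7 and Myf5, had an unadjusted p under 0.05 in limma, with differences of opposite sign. Pax7, the factor that defines satellite cells, had 288, 392, 173 and 251 normalized counts in gal-3+ macrophages, 145, 115 and 155 in MDMs and 365, 572 and 362 in SkMRMs. Pax7 was called lower in MDMs relative to SkMRMs (-1.62 ± 0.27, adjusted p = 8.2e-05), and gal-3+ macrophages overlapped SkMRMs (-0.67 ± 0.26, adjusted p = 0.038). Myod1, the factor of activated satellite cells and myoblasts, had 191, 107, 298 and 302 in gal-3+ macrophages, 83.8, 91.9 and 81.0 in MDMs and 145, 158 and 109 in SkMRMs. It was called higher in gal-3+ macrophages than in MDMs (1.27 ± 0.33, adjusted p = 0.0055), but the call was lost without any 1 of gal-3+ mdx1, mdx4 and mdx5 and MDM mdx1, mdx4 and mdx5, with log2 differences of 1.09 to 1.32. Myf5, a factor of myogenic commitment, ranged from 49.8 to 124 in gal-3+ macrophages, 36.4 to 61.2 in MDMs and 28.2 to 56.0 in SkMRMs, and had no call.

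Dmd, the gene of dystrophin, is mutated in the mdx mice and also encodes shorter forms in other cells. It lies on chromosome X (chrX:82948870-85206141, mm10). Its transcript is known to be reduced in mdx muscle. Dmd had 145, 213, 137 and 201 normalized counts in gal-3+ macrophages, 80.6, 20.4 and 16.4 in MDMs and 407, 386 and 384 in SkMRMs, and the groups did not overlap. It was called lower in MDMs relative to SkMRMs (-3.65 ± 0.44, adjusted p = 1.8e-06) and higher in gal-3+ macrophages than in MDMs (2.46 ± 0.41, adjusted p = 1.5e-04). The difference of gal-3+ macrophages over SkMRMs, -1.19 ± 0.41, adjusted p = 0.023, did not pass the adjusted p in the main limma fit. It passed in DESeq2 (-1.17, adjusted p = 0.0027), and in limma with these 2 populations alone (adjusted p = 3.6e-04) or without MDM mdx1 (adjusted p = 0.0013). Set against Acta1 in the same library, Dmd stood at 0.0587 to 0.101 in gal-3+ macrophages, 0.0319 to 0.122 in MDMs and 0.0703 to 0.120 in SkMRMs, and these ranges overlapped. The overlap of MDMs came from mdx1 (0.122), with 0.0319 in mdx4 and 0.0334 in mdx5. As a share of the member sum, Dmd was 0.639% to 1.00%, 0.189% to 0.850% and 0.886% to 1.38% in the same populations, with MDMs below SkMRMs. Set against Utrn, of the other muscle genes, Dmd stood at 0.0205 to 0.0320, 0.00327 to 0.0156 and 0.0373 to 0.0486, without overlap.

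Ratios within a library, which do not depend on its depth or scaling, showed that the members did not move as 1 block. Myl1 stood at 0.390 to 0.437 of Acta1 in gal-3+ macrophages, 0.329 to 0.506 in MDMs and 0.427 to 0.478 in SkMRMs, and these ranges overlapped while the level of Acta1 differed by 4.08-fold between gal-3+ macrophages and MDMs. Tnnt3 stood at 0.299 to 0.377 of Acta1 in gal-3+ macrophages, 0.299 to 0.396 in MDMs and 0.430 to 0.449 in SkMRMs, so that the 3 SkMRM libraries lay above all 7 mdx libraries. Myh4 per Acta1 was 0.186 to 0.315 in gal-3+ macrophages, 0.403 to 0.461 in MDMs and 0.400 to 0.458 in SkMRMs. In this ratio the gal-3+ libraries lay below all others, and MDMs and SkMRMs overlapped. Ckm per Acta1 was 0.144 to 0.199 in gal-3+ macrophages, 0.143 to 0.252 in MDMs and 0.232 to 0.243 in SkMRMs, with gal-3+ macrophages below SkMRMs and MDMs overlapping both. There were 0.877 to 1.22 reads of Myh3 for each read of Myh4 in gal-3+ macrophages, 0.342 to 0.670 in MDMs and 0.00766 to 0.0181 in SkMRMs, with no overlap between the groups. Chrna1 per Acta1 was 0.0809 to 0.195 in gal-3+ macrophages, 0.132 to 0.277 in MDMs and 0.0223 to 0.0508 in SkMRMs. Both mdx populations lay above SkMRMs in this ratio, although Chrna1 itself overlapped between MDMs and SkMRMs (0.02 ± 0.35, adjusted p = 0.96). Ttn per Acta1 was 0.889 to 1.77 in gal-3+ macrophages, 1.97 to 3.07 in MDMs and 0.708 to 0.900 in SkMRMs, and Pax7 per Acta1 was 0.0797 to 0.185, 0.180 to 0.315 and 0.0664 to 0.151 in the same populations.

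**Figure D4:**
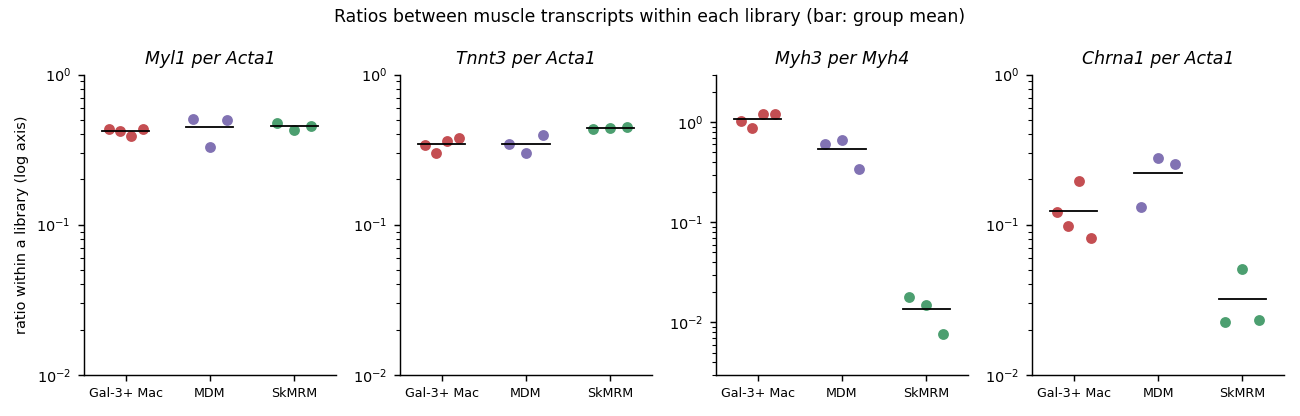
Ratios between 2 members within each library (log axis), by population. Points are libraries and bars are group means. Myl1 per Acta1 overlapped between the populations (0.329 to 0.506 in all 10 libraries), Tnnt3 per Acta1 was 0.299 to 0.396 in the mdx libraries and 0.430 to 0.449 in SkMRMs, and Myh3 per Myh4 was 0.342 to 1.22 in the mdx libraries and at most 0.0181 in SkMRMs.

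The make-up of the myosin reads separated both mdx populations from SkMRMs. Myh3 and Myh8 together made up 44.7% ± 3.77 of the reads of 6 sarcomeric heavy chains (Myh1, Myh2, Myh3, Myh4, Myh7 and Myh8) in gal-3+ macrophages, 36.5% ± 4.43 in MDMs and 1.66% ± 0.381 in SkMRMs (SD, n = 4, 3 and 3). The lowest gal-3+ library (41.5%, 95% Wilson interval 39.7% to 43.4%) and the highest MDM library (41.1%, 36.7% to 45.8%) were not distinguishable at this depth, whereas the upper bound of the interval was at most 2.57% in the SkMRM libraries. Among the 4 adult chains, Myh4 held 55.4 to 65.5% of reads in gal-3+ macrophages, 64.1 to 76.0% in MDMs and 62.6 to 70.2% in SkMRMs, so the fast 2B chain led in all 10 libraries. Myh1 was second, and Myh7, the slow heavy chain, held at most 2.59% of adult myosin reads in any library. Of the summed level of all members, adult fast myosin genes were 11.6% in gal-3+ macrophages, 8.52% in MDMs and 16.2% in SkMRMs. The Z disc, titin and desmin group was 23.6%, 26.4% and 17.2% in gal-3+ macrophages, MDMs and SkMRMs.

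Other muscle genes, from lists written with the members, were counted in the same way. Of 124 measured, 6 were called higher and 16 lower in gal-3+ macrophages relative to SkMRMs (4.84% and 12.9%, near the 5.34% and 11.9% of all genes), with a median log2 difference of -0.25, and without SkMRM WT3 the lower count was 9. In MDMs 6 were called higher and 60 lower than in SkMRMs (4.84% and 48.4%, beside 8.81% and 18.0% of all genes, median -1.59). In gal-3+ macrophages 43 were called higher and 1 lower than in MDMs (34.7% and 0.806%, beside 8.19% and 3.32% of all genes, median 1.24). Nrap, a protein of the myotendinous junction and of forming myofibrils, had 156, 189, 242 and 206 normalized counts in gal-3+ macrophages, 44.3, 58.7 and 18.8 in MDMs and 2587, 2688 and 2399.9 in SkMRMs, a wider gap than that of any member called lower in gal-3+ macrophages relative to SkMRMs (-3.70 ± 0.29, adjusted p = 1.4e-08). Tendon markers moved with it, as given below. Of the 25 other sarcomere and Z disc genes, 4 (16%, beside 11.9% of all genes) were called lower in gal-3+ macrophages relative to SkMRMs. In MDMs 14 were called lower than in SkMRMs (56%, beside 18.0% of all genes), with Fhl3 and Myom1 among those 14.

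Several of these genes may also be expressed by macrophages or other cells, which was not tested. The genes named next had an order of populations unlike that of most members. Fbxo32, the muscle atrophy ubiquitin ligase atrogin-1, had 3729, 4274, 4438 and 3711 normalized counts in gal-3+ macrophages, 928, 661 and 838 in MDMs and 437, 363 and 282 in SkMRMs, and was called higher in gal-3+ macrophages relative to SkMRMs (3.50 ± 0.14, adjusted p = 3.0e-12) and than in MDMs (2.33 ± 0.14, adjusted p = 3.1e-09). Adssl1, an adenylosuccinate synthase of muscle, had 2868, 2246, 2589 and 2725 in gal-3+ macrophages, 3940.2, 4509 and 4755 in MDMs and 372, 449 and 534 in SkMRMs, and Kcnj2, an inward rectifier potassium channel, had 463, 324, 431 and 469.9 in gal-3+ macrophages, 1164, 1186 and 1220.0 in MDMs and 132, 180.2 and 153 in SkMRMs. Adssl1 and Kcnj2 were highest in MDMs, where most members were lowest. Among 26 listed genes of myogenic regulation and fusion, 23 were measured. Relative to SkMRMs, 3 were called lower in gal-3+ macrophages (13%, near the 11.9% of all genes) and 10 in MDMs (43.5%, beside 18.0%). In gal-3+ macrophages 10 were called higher than in MDMs (43.5%, beside 8.19% of all genes). Myog, the factor of myoblast differentiation, and Myl4, a light chain of embryonic and atrial muscle, were picked out after their values were seen. Myog had 327, 433, 526 and 694 in gal-3+ macrophages, 60.1, 213 and 109 in MDMs and 229.8, 319 and 205 in SkMRMs, and was called higher in gal-3+ macrophages than in MDMs (2.08 ± 0.34, adjusted p = 1.2e-04) but not than in SkMRMs (0.95 ± 0.34, adjusted p = 0.028). Myl4 had 147, 124, 131 and 169 in gal-3+ macrophages, 17.4, 42.1 and 44.6 in MDMs and 46.7, 52.0 and 32.1 in SkMRMs, and was called higher in gal-3+ macrophages relative to SkMRMs (1.71 ± 0.40, adjusted p = 0.002) and than in MDMs (2.11 ± 0.40, adjusted p = 4.7e-04), as Myh3 was.

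Markers of other cells of muscle tissue shared the order of the members only in part. The 12 smooth muscle and pericyte markers summed to 10756 to 13949 normalized counts in gal-3+ macrophages, 3023 to 3569 in MDMs and 8634 to 16069.8 in SkMRMs. Relative to SkMRMs, 11 of 12 were called lower in MDMs (91.7%, beside 18.0% of all genes) and 1 in gal-3+ macrophages (8.33%, beside 11.9%). In gal-3+ macrophages 10 were called higher than in MDMs (83.3%, beside 8.19% of all genes). Myh11, the smooth muscle myosin, had 1347, 2211, 1403 and 1772 in gal-3+ macrophages, 395, 299 and 331 in MDMs and 2901, 2725 and 1217 in SkMRMs. The 8 Schwann cell markers summed to 7056 to 9089 in gal-3+ macrophages, 3524 to 3984 in MDMs and 12270.5 to 15942 in SkMRMs. Relative to SkMRMs, 7 were called lower in MDMs (87.5%, beside 18.0% of all genes) and 1 in gal-3+ macrophages (12.5%, near 11.9%). In gal-3+ macrophages 6 were called higher than in MDMs (75%, beside 8.19% of all genes). Low levels in MDMs were thus shared by muscle fiber, smooth muscle and Schwann cell genes. The 12 endothelial markers summed to 17075 to 23262 in gal-3+ macrophages, 10780.2 to 12115 in MDMs and 6551 to 18196 in SkMRMs. Relative to SkMRMs, 3 were called lower in MDMs (25%, beside 18.0% of all genes) and 1 higher in gal-3+ macrophages (8.33%, beside 5.34%). All 12 had a difference above 0 in gal-3+ macrophages relative to SkMRMs (median 0.75, against -0.75 for the members). The SkMRM sums were 18196 in WT1, 16255 in WT2 and 6551 in WT3. WT3 also had the highest sum of muscle members, whose median was -0.53 without it. How far the endothelial median rested on WT3 was not tested. Of the endothelial markers, 7 were called higher in gal-3+ macrophages than in MDMs (58.3%, beside 8.19% of all genes).

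Most tendon markers, and the summed fibroblast markers, were lower in both mdx populations than in SkMRMs. The 10 tendon cell markers summed to 4783 to 8707 normalized counts in gal-3+ macrophages, 4860.4 to 6699 in MDMs and 56291 to 107978 in SkMRMs. Relative to SkMRMs, 9 were called lower in gal-3+ macrophages and 9 in MDMs (90% each, beside 11.9% and 18.0% of all genes). Fmod, a small proteoglycan of tendon, had 893, 529, 520.2 and 602 in gal-3+ macrophages, 194, 209 and 151 in MDMs and 46969, 26209 and 22436 in SkMRMs. The 14 fibroblast and fibro/adipogenic progenitor markers summed to 70486 to 100043 in gal-3+ macrophages, 87195 to 97816 in MDMs and 577885 to 1378950.0 in SkMRMs. In gal-3+ macrophages 7 of them were called lower and 0 higher relative to SkMRMs (median log2 difference of -1.04). The lower share was 50%, beside 11.9% of all genes. In MDMs 5 of them were called lower and 1 higher relative to SkMRMs (35.7% and 7.14%, beside 18.0% and 8.81% of all genes, median -0.72). Within SkMRMs, WT3 had the highest sum of muscle members (43301, against 29498 in WT1 and 30194 in WT2) and the lowest sums of endothelial, smooth muscle, Schwann cell and tendon markers. No marker of these lists that was measured was at 0 in all 10 libraries. The part that cells of these types had in the muscle values was not tested.

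**Figure D5:**
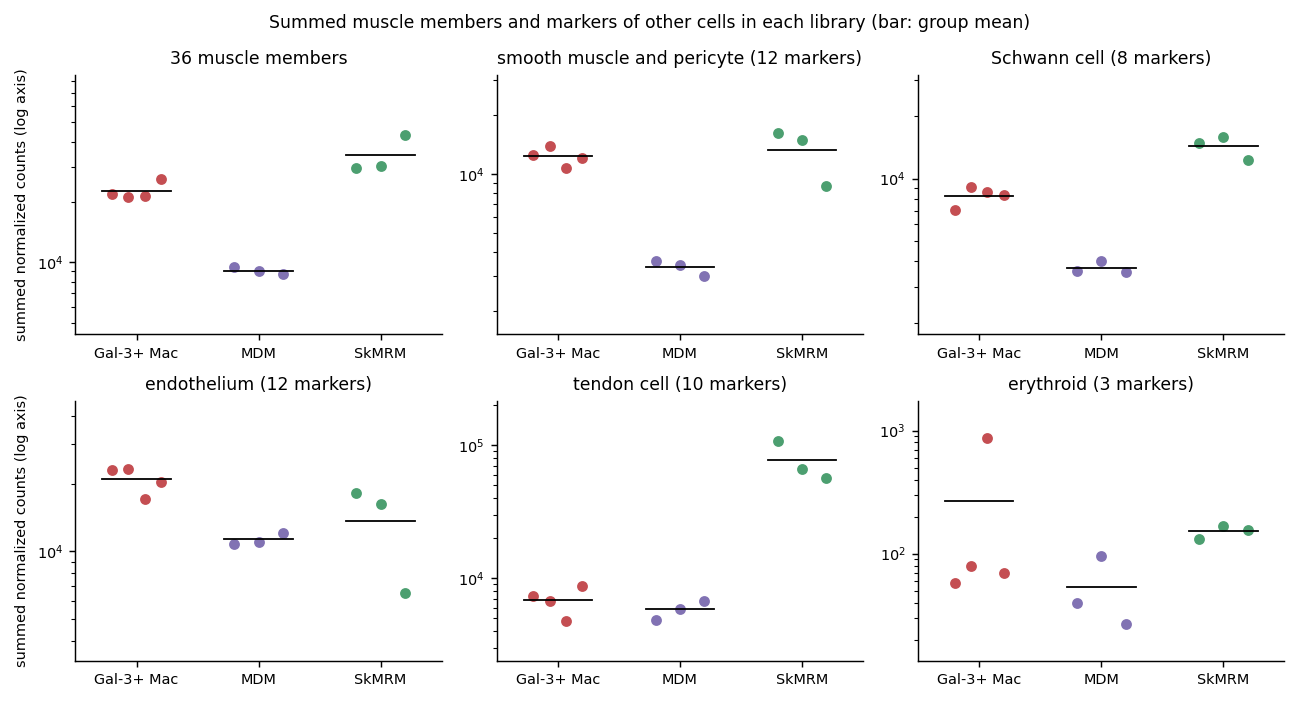
Summed normalized counts (log axis) of the 36 muscle members and of marker lists of other cells in each library, by population. Points are libraries and bars are group means. Muscle members, smooth muscle and Schwann cell markers were lowest in the 3 MDM libraries, tendon markers were raised in the SkMRMs, and erythroid markers stood out in 1 gal-3+ library.

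Markers of 4 further cell classes each summed to at most 1813 normalized counts in any library. The 3 measured erythroid markers summed to 57.5 to 871 normalized counts in gal-3+ macrophages, 27.0 to 95.7 in MDMs and 132 to 169 in SkMRMs, with the highest value in gal-3+ mdx4. The 3 measured adipocyte markers summed to 16.3 to 49.3, 7.65 to 20.6 and 72.9 to 96.8, and the 4 measured T and B cell markers to 123 to 242, 82.9 to 115 and 95.5 to 206, in gal-3+ macrophages, MDMs and SkMRMs. The 6 measured neutrophil markers summed to 389 to 545 in gal-3+ macrophages, 1436 to 1813 in MDMs and 104 to 330.1 in SkMRMs, and so were highest where the sum of the muscle members was lowest.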

How the data were processed

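Bulk RNA-seq libraries were made from 2 ng of total RNA of sorted hindlimb macrophages with a stranded kit for very small inputs of total RNA (SMARTer, Pico v2), which does not select poly(A) tails, and sequenced in pairs of 100 bases. Per the submitters' processing notes and the study's methods, the authors aligned reads to mm10 with TopHat2 2.0.14 and obtained counts for each gene from HTSeq 1.99.2, with scaling by DESeq2 1.28.1. Whether counting used strand is not given in the sources used here, so reads of a gene and of an overlapping antisense gene cannot be told apart. Total RNA holds unspliced transcripts, which exon counts may include in part.

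The deposited values are a signal per gene and library, normalized counts, that is reads divided by the DESeq2 size factor of the library. Dividing by the step of each library gave whole reads for 100% of values within 0.001. Columns with the authors' own comparisons (mean, log2 fold change, p-values) were not used. The table holds 22 gene names that a spreadsheet turned into dates.

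The main test was limma 3.58.1 (trend) on log2(normalized count + 1) over all 10 libraries in 3 groups, with 7 residual degrees of freedom and Benjamini-Hochberg adjustment over 17001 genes. The thresholds are those of the study's methods. Alternatives were a pseudocount of 0.5 or 5, a minimum of 50, TMM, upper quartile and marker-free scaling, edgeR 4.0.16 and DESeq2 1.42.0 on the recovered reads, 2 populations at a time, other thresholds, a replicate block, and leaving out each library.

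The members and all gene lists were chosen with earlier results of these data known. All 36 members were to be described, with values per library for those called in any comparison or with a mean of at least 500 normalized counts, and of each other list up to 3 of the most abundant called genes. Not every gene so eligible is named. Correlations across libraries are not given, since the libraries form 3 separate clusters. Positions and exon lengths are from GENCODE (vM21, mm10), which matched 36 of 36 members, and promoters are from RefSeq. The study used an earlier GENCODE release on the same build.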

Additional observations from a re-analysis of the deposited data

Results flagged for a closer look

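Within the 4 gal-3+ libraries, 57 values were checked for a library far from the others, a check that by chance marks about 1 group in 20, and 2 were marked. The summed level of the 36 muscle members was 26021 normalized counts in gal-3+ mdx5, against 21252 to 21922 in the other 3. The 3 measured erythroid markers, hemoglobin genes, summed to 871 in gal-3+ mdx4, against 57.5 to 80.0 in the other 3, while the muscle members were not raised in that library (21505).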

How the results depend on the processing

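Of 2190 values of single members under the alternatives, 2090 kept their direction and their side of the threshold, 59 lost a call, 20 gained 1 and 21 changed sign. Calls held under every alternative for 6 of the 12 members called between gal-3+ macrophages and SkMRMs, 26 of 29 between MDMs and SkMRMs and 16 of 25 between gal-3+ macrophages and MDMs. Where no minimum fold was asked, 16 members were lower in gal-3+ macrophages (9 in the main test), and the other muscle genes called higher were 12 (main 6) in gal-3+ macrophages and 11 (main 6) in MDMs, each against SkMRMs, with 7 called lower (main 1) in gal-3+ macrophages against MDMs. Only 1 member (main 2, Myh8 being lost) was higher in MDMs than in the SkMRM libraries under upper quartile scaling or with just these 2 populations. Upper quartile scaling moved the median of all genes by -0.12 in gal-3+ macrophages and by -0.15 in MDMs against SkMRMs. The causes were not tested.

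Leaving out 1 library, the lower members in gal-3+ macrophages against SkMRMs numbered 4 to 10 and the other muscle genes called lower 9 to 17, with both minima without SkMRM WT3. Members higher in MDMs than in the SkMRM libraries numbered 1 to 2. Same-numbered gal-3+ and MDM libraries did not deviate together (correlations of -0.028, 0.010 and 0.025 for mdx1, mdx4 and mdx5), so the numbers were not taken to pair them. With the replicate block, which had only 6 libraries, 19 members (main 25) and 18 other muscle genes (main 43) were called higher in gal-3+ macrophages against MDMs. The 6 lost were Actn2 (1.80), Xirp2 (1.45), Pvalb (1.88), Casq1 (1.59), Mb (3.68) and Dmd (2.35), with limma adjusted p between 0.013 and 0.067. No paired analysis was possible because WT and mdx mice differ for the comparisons with SkMRMs.

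Without Tpm1, Tpm2, Des and Dmd, the members' share of reads was 0.0491% in gal-3+ macrophages, 0.0172% in MDMs and 0.0916% in SkMRMs. By construction the share of adult fast myosin genes in the member sum then grew to 16.9%, 12.8% and 22.1%, and that of Myh3 and Myh8 to 5.57%, 3.58% and 0.183%, in gal-3+ macrophages, MDMs and SkMRMs.

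All sign changes concerned 6 differences near 0 that were not called. Ttn in gal-3+ macrophages against SkMRMs was 0.022 with TMM scaling and -0.24 to 0.27 leaving out 1 library. In MDMs against SkMRMs, Cacng1 was 0.025 with a pseudocount of 5, 0.016 with TMM, 0.13 with edgeR, 0.11 with DESeq2 and -0.38 to 0.59 leaving out 1 library. Chrna1 was -0.13 with upper quartile scaling, -0.0023 with edgeR, -0.020 with DESeq2 and -0.32 to 0.35 leaving out 1 library, and Myf5 was -0.089 to 0.39. In gal-3+ macrophages against MDMs, Tcap was -0.30 to 0.36 and Ryr1 -0.25 to 0.0088 leaving out 1 library. Depth limited Mb, Tcap, Myh2 and Cacng1, each with 10 reads or fewer in at least 1 library.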
